A study of Mus musculus with 6 samples.

Results

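The genes described here are the nuclear genes of oxidative phosphorylation: the protein-coding genes whose symbols name subunits of complex I (Nduf), complex II (Sdh), complex III (Uqcr), complex IV (Cox4 to Cox8) and complex V, the ATP synthase (Atp5). They were chosen by a rule on symbols that uses no measured value, though earlier results of these data were known when it was set. The rule found 85 genes among the 54232 in the count table, of which 21983 are protein-coding. Complex I holds 35 of them, complex II 4, complex III 8, complex IV 20 and complex V 18. The 20 genes counted with complex IV include Ndufa4 and Ndufa4l2, since the Ndufa4 protein is a subunit of cytochrome c oxidase despite its name. Of the 85, 75 encode common subunits, 8 encode isoforms restricted to some tissues or states, and 2 encode associated factors (Cox7a2l, a supercomplex assembly factor, and Atp5s, a coupling factor of ATP synthase).

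Oxidative phosphorylation takes electrons from NADH at complex I and from succinate at complex II, passes them through ubiquinone, complex III and cytochrome c to oxygen at complex IV, and uses the proton gradient built on the way to make ATP at complex V. The mitochondrial genome encodes a few core subunits, and the nucleus encodes all the others, the whole of complex II included. Several subunits of complex IV have paralogs used in muscle, in lung or in the male germline, and the testis has its own cytochrome c, so the isoform a tissue uses is itself a trait of its cell types.

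The tissue was the whole testis of mice at postnatal day 4, in 3 Dis3l2 WT and 3 Dis3l2 cKO samples by their labels. Dis3l2 is a cytoplasmic 3′ to 5′ exoribonuclease. All samples carry the strain label B6D2F1 inbred. The labels name neither the Cre driver nor the deleted exons, and they do not say whether the samples came from separate animals, so the spread behind each p-value is that among these samples and may be technical. The submitters sought differentially expressed genes. At this age the testis holds germ cells that have not entered meiosis, among a majority of somatic cells.

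Libraries held 26126694 to 43265614 counts, the smallest being cKO 1. Dis3l2 itself was at 32.8, 31.0 and 32.1 CPM (counts scaled to a common library size) in WT against 30.6, 31.0 and 33.6 in cKO, with overlapping groups. The count covers the whole gene while the deleted exons are not named, so it does not check the labels. Of 20153 genes with enough counts to be tested, 685 were higher and 996 lower in cKO at an adjusted p under 0.05 (edgeR quasi-likelihood test, two-sided, Benjamini-Hochberg over all genes tested). Among markers of the cell types in the testis, chosen with earlier results of these data known, 9 of 12 germ cell markers were lower. The summed level of the 12 was 1199 to 1266 CPM in WT against 654 to 696 CPM in cKO. Among somatic markers, 5 of 12 for Sertoli cells, 4 of 8 for Leydig cells and 4 of 9 tested for macrophages were higher. Among those of peritubular and stromal cells, fat and red blood cells, 1 of 10 was lower, 1 of 8 higher and 0 of 5 called. In whole tissue, fewer cells of a type and less RNA per cell cannot be told apart.

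The nuclear oxidative phosphorylation genes kept nearly the same place in the transcriptome of both groups. Together they took 0.765 to 0.797% of all counts in WT and 0.771 to 0.800% in cKO. Their summed level was 7785 ± 189 CPM in WT against 7896 ± 197 CPM in cKO (SD, n = 3 each). Library by library it was 7578, 7830 and 7948 CPM in WT against 7748, 8120 and 7821 in cKO, and the groups overlapped. Of the 85 genes, 83 had enough counts to be tested, and these did not pass the filter on low counts: Cox8b, and a second gene model of Atp5o that had 0 counts in every library. The median log2 fold change of the 83, cKO over WT, was 0.04, beside 0.01 over all genes tested.

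Among the 83 genes, 4 fell and 0 rose past the threshold, and 79 did not pass it. The 4 are Ndufc2 and Ndufa13 of complex I, and Cox4i1 and Cox7b2 of complex IV. Over all genes tested 8.34% were called in either direction, 4.94% as lower and 3.4% as higher. The 4 lower calls are thus near the background share of lower calls, and the share called in either direction is below 8.34%. The germ cell markers differed between the same libraries, and their part in these calls was not tested. At an unadjusted p under 0.05 there were 12 of the 83, beside 23.3% of all genes tested. DESeq2, which called 12.5% of all genes it tested, and limma-voom, which called 8.93%, also called 0 members higher and the same 4 lower. The fitted log2 fold change was above 0 for 52 of the 83 genes and below 0 for 31. For 75 of the 83, the 95% interval of the log2 fold change lay within 0.5 of 0, which was so for 52% of all genes tested. The members were also measured more precisely, with a median standard error of 0.072 beside 0.123 over all genes tested. The WT and cKO libraries did not overlap for 15 of the 83, 7 of them lower and 8 higher in cKO, beside 28.2% of all genes tested (14.6% lower and 13.6% higher).

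**Figure D1:**
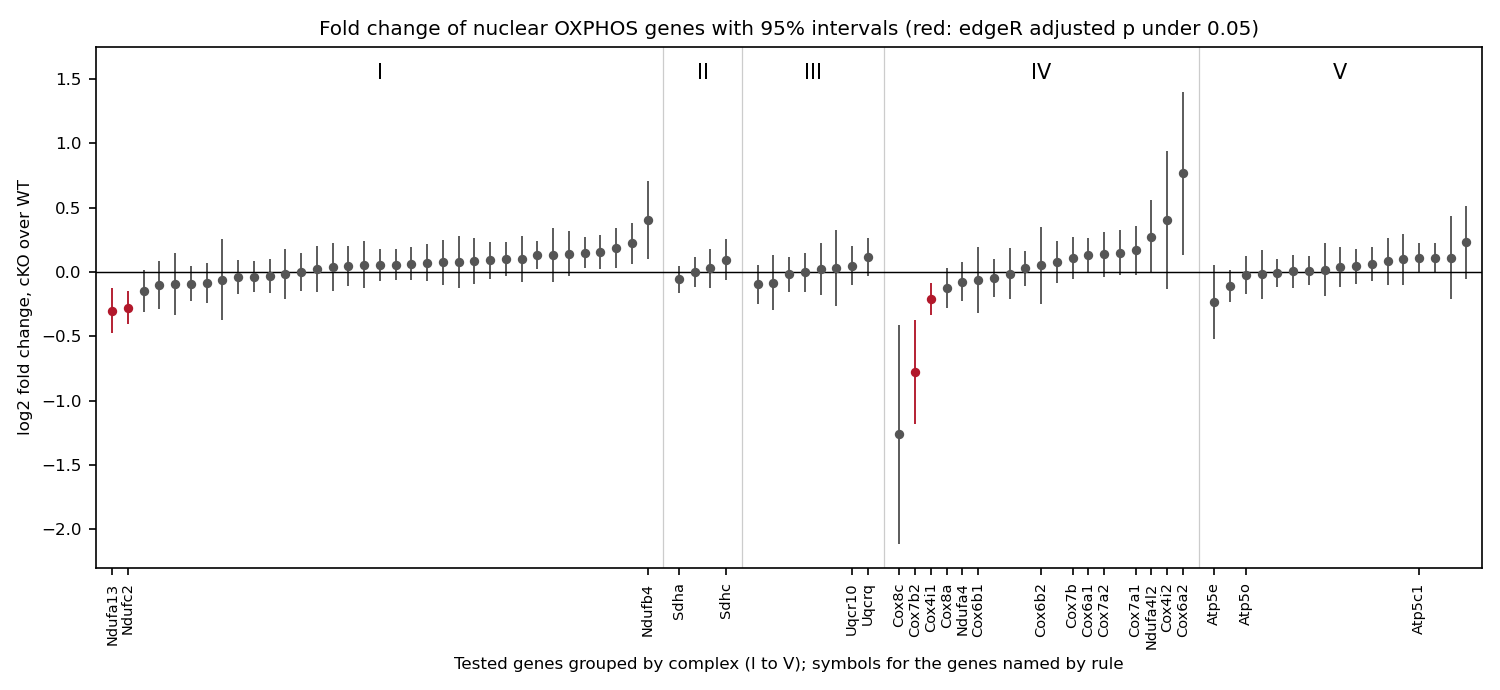
Log2 fold change, cKO over WT, of the 83 tested genes (points) with 95% intervals (lines), ordered within complexes I to V; red marks an edgeR adjusted p under 0.05, and symbols are given for the genes named by rule. Most points lie close to 0, the 4 red points are all below it, and the widest intervals belong to complex IV isoforms of low level such as Cox8c and Cox6a2.

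By complex, the median log2 fold change was 0.06 for complex I, 0.01 for complex II, 0.01 for complex III, 0.05 for complex IV and 0.04 for complex V. Complex I held 2 called genes of 35 tested, complex IV 2 of 19, and complexes II, III and V 0 of 4, 0 of 8 and 0 of 17. Over all genes tested 8.34% were called, and with so few genes these counts do not set the complexes apart. Summed levels differed little beside their spread. Complex I was at 2174 ± 68.0 CPM in WT against 2237 ± 34.8 in cKO, and complex V at 2806 ± 44.1 CPM in WT against 2823 ± 85.1 in cKO (SD, n = 3 each). Complex IV was at 1772 ± 67.9 CPM in WT against 1803 ± 73.4 in cKO, complex III at 540 ± 26.9 and 546 ± 26.6, and complex II at 492 ± 10.7 and 486 ± 13.4 (SD, n = 3 each).

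**Figure D2:**
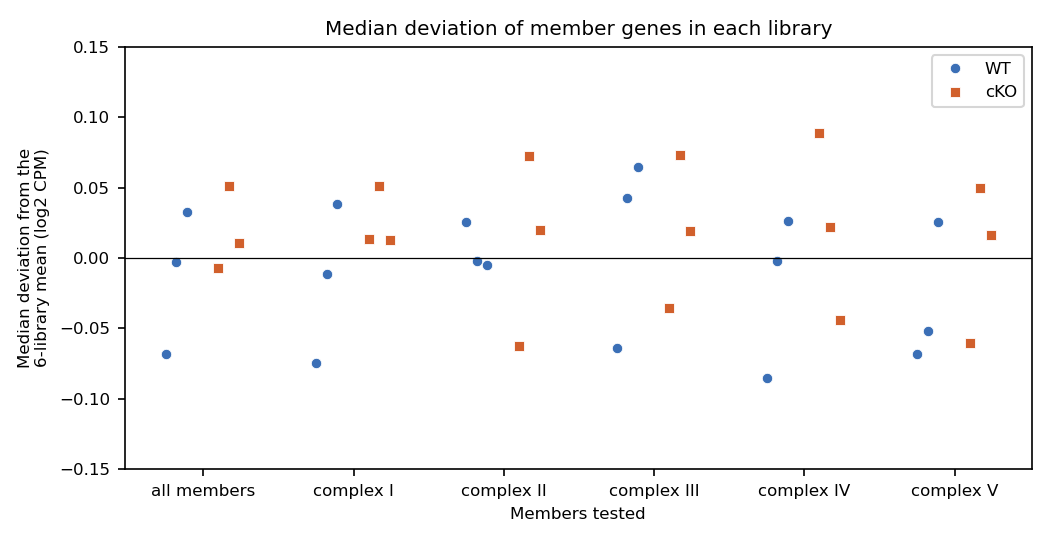
Median deviation of the tested genes from their mean over the 6 libraries, in log2 CPM, for all members and for each complex; circles are WT libraries and squares cKO libraries. For all members the WT libraries sit at -0.07, -0.0026 and 0.03 and the cKO libraries at -0.01, 0.05 and 0.01, so the groups overlap, as they do for every complex.

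Complex I takes electrons from NADH. Its 7 nuclear core subunits, which carry the flavin and the iron-sulphur clusters, gave 0 calls and a median log2 fold change of 0.09. Ndufs7, which carries an iron-sulphur cluster, was at 123, 142 and 137 CPM in WT against 145, 155 and 149 in cKO. Every cKO library lay above every WT library, without a call (adjusted p = 0.144 in edgeR). Ndufs8 and Ndufs1 had overlapping groups and log2 fold changes of -0.10 and 0.10.

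The 28 accessory subunits, which surround the core, held both calls of complex I. Ndufc2, a small membrane-arm subunit at chr7:97400003-97407802 (GRCm38), had the highest level per length of complex I, at 144 ± 4.77 CPM per kilobase in WT (SD, n = 3). It was at 105, 113 and 108 CPM in WT against 90.2, 94.5 and 84.5 in cKO, so each cKO library was below each WT library. Its log2 fold change was -0.28 (SE 0.059, adjusted p = 0.0132, edgeR). The call was lost without WT 2 (adjusted p = 0.103) and without WT 3 (0.0613). Within 5 Mb on either side of Ndufc2, 20 of 110 tested genes (18.2%) were called, beside 8.34% of all genes tested.

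Ndufa13, an accessory subunit at chr8:69894180-69902558, was at 42.9, 46.2 and 45.7 CPM in WT against 32.4, 38.3 and 38.7 in cKO. The groups did not overlap, and cKO 1 was the lowest library. Its log2 fold change was -0.30 (SE 0.079, adjusted p = 0.0368, edgeR). The call was lost without WT 1 (adjusted p = 0.0865), WT 2 (0.178), WT 3 (0.140) or cKO 2 (0.0848). The gene lies in a stretch dense in calls, where 40 of 143 tested genes within 5 Mb (28.0%) were called, beside 13.5% over chromosome 8.

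The largest fitted change in complex I was that of Ndufb4, an accessory subunit of the membrane arm, which was not called. It was at 56.0, 58.6 and 56.3 CPM in WT against 96.2, 74.0 and 56.8 in cKO. The WT libraries agreed closely, while cKO ranged from the WT level in cKO 3 to well above it in cKO 1, and the groups overlapped. Its log2 fold change was 0.41 (SE 0.14, adjusted p = 0.0963, edgeR), with a call without cKO 3 (log2 fold change 0.57, adjusted p = 0.00328) or when low genes were kept (0.39, adjusted p = 2.47e-05). Ndufb7, another accessory subunit, was at 56.8, 54.2 and 61.7 CPM in WT against 72.1, 62.2 and 67.3 in cKO, a log2 fold change of 0.22 (SE 0.072, adjusted p = 0.0816, edgeR) with no overlap. Ndufb3 and Ndufs4 also had all cKO libraries above all WT libraries, with log2 fold changes of 0.15 and 0.19, and Ndufa11 had them all below, at -0.09, none of them called.

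**Figure D3:**
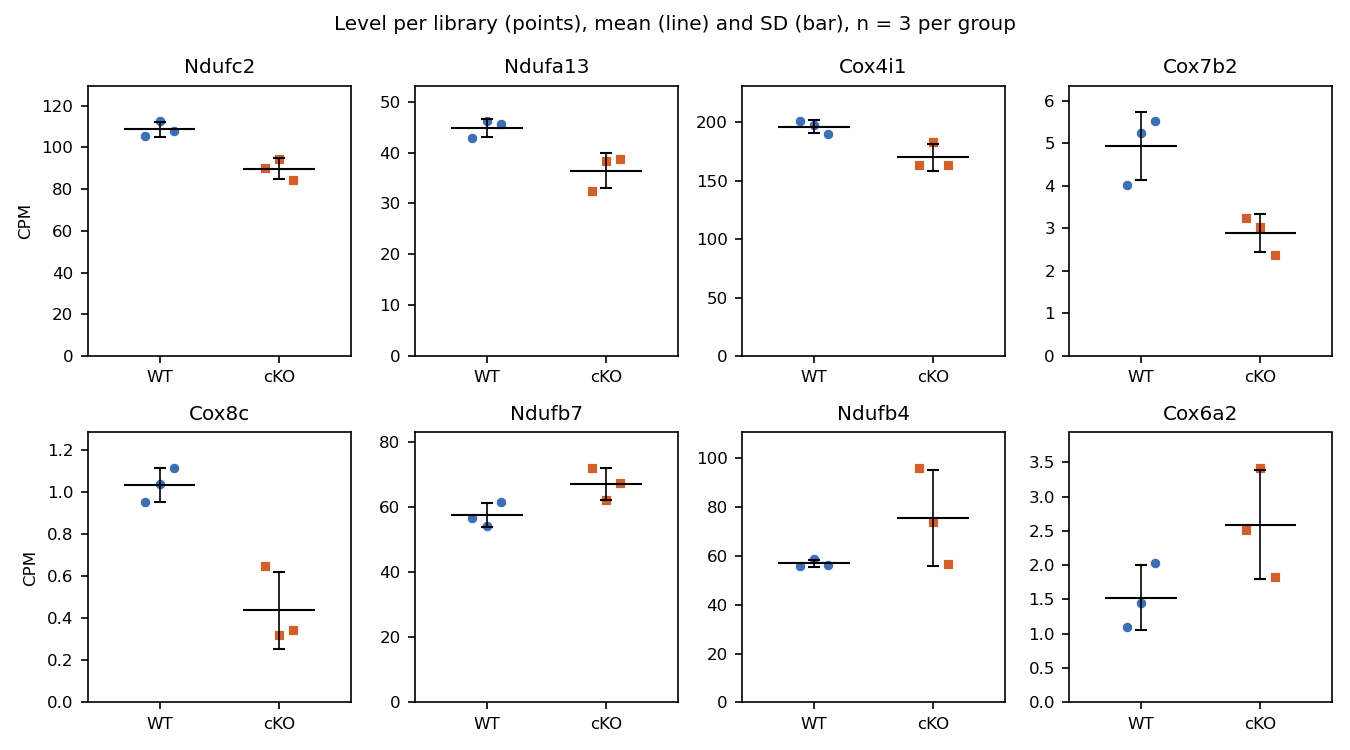
Level in CPM of 8 genes in each library (circles WT, squares cKO), with the mean as a line and the SD as a bar, n = 3 per group; each axis starts at 0. Ndufc2, Ndufa13, Cox4i1, Cox7b2 and Cox8c are lower in all 3 cKO libraries, Ndufb7 is higher in all 3, and Ndufb4 and Cox6a2 overlap.

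Complex II, which oxidises succinate and is shared with the tricarboxylic acid cycle, had the smallest median standard error of the 5 complexes, 0.062 on the log2 scale. Sdha, the flavoprotein and the highest of the 4 per length at 72.5 ± 2.27 CPM per kilobase in WT (SD, n = 3), was at 309, 298 and 290.4 CPM in WT against 288, 293 and 280.3 in cKO. The groups overlapped, and its 95% interval ran from -0.16 to 0.05 on the log2 scale. Sdhb, the iron-sulphur subunit, had a log2 fold change of 0.00 (95% interval -0.12 to 0.12), with 71.8 to 75.7 CPM over all 6 libraries. Sdhc, a membrane anchor and the gene with the largest fitted change of the complex, was at 69.1, 61.2 and 66.1 CPM in WT against 63.3, 72.9 and 73.6 in cKO, a log2 fold change of 0.10 (SE 0.073, adjusted p = 0.485, edgeR). The other membrane anchor, Sdhd, had a log2 fold change of 0.03.

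Complex III passes electrons from ubiquinol to cytochrome c. Its 8 genes ranged from -0.09 for Uqcrh to 0.12 for Uqcrq on the log2 scale, with overlapping groups for each. Uqcr10, a small subunit with the highest level per length of the complex at 103 CPM per kilobase in WT, was at 58.5, 58.0 and 64.0 CPM in WT against 60.8, 67.0 and 58.9 in cKO. Uqcrq was at 78.8, 86.7 and 94.2 CPM in WT against 90.2, 96.2 and 95.4 in cKO (SE 0.069, adjusted p = 0.336, edgeR). The Rieske protein gene Uqcrfs1 and the core genes Uqcrc1 and Uqcrc2 had log2 fold changes of -0.08, 0.02 and -0.02. Uqcrb has 3 near-identical copies in other gene models, whose counts came to 77.2% of its own, so reads may have been split between them.

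Complex IV, cytochrome c oxidase, passes electrons to oxygen. Its 12 common genes, leaving the restricted isoforms aside, had a median log2 fold change of 0.01 and 1 call. Cox4i1, the common form of subunit 4, at chr8:120668222-120674207, was at 201, 198 and 190.0 CPM in WT against 164, 183 and 163 in cKO. Each cKO library was below each WT library. Its log2 fold change was -0.21 (SE 0.058, adjusted p = 0.0471, edgeR), just inside the threshold. The call was lost without WT 1 (adjusted p = 0.174), WT 2 (0.193), WT 3 (0.104) or cKO 3 (0.112). Within 5 Mb of Cox4i1, 12 of 130 tested genes (9.23%) were called, beside 13.5% over chromosome 8 and 8.34% of all genes tested.

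The highest level per length of all the genes was that of Cox6a1, the common form of subunit 6a, at 526 CPM per kilobase in WT. It was at 345, 374 and 389 CPM in WT against 377, 433 and 403 in cKO, with overlapping groups, a log2 fold change of 0.13 (SE 0.062, adjusted p = 0.236, edgeR), and a call without cKO 1 (log2 fold change 0.17, adjusted p = 0.0218). Cox8a, the common form of subunit 8, had a log2 fold change of -0.12 and Cox5b one of 0.15, and neither was called. Cox6c, at 448, 462 and 459 CPM in WT against 509.9, 466 and 422 in cKO, showed a wider spread within cKO than between the groups, with cKO 1 highest and cKO 3 lowest.

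Complex V makes ATP. The genes of its catalytic head include the highest levels of the complex, and 0 were called. Atp5c1, the gamma subunit, had the highest level per length, at 304 CPM per kilobase in WT, and was at 548, 601 and 593 CPM in WT against 628, 652 and 597 in cKO (log2 fold change 0.11, adjusted p = 0.255, edgeR). Atp5a1, the alpha subunit, was at 698, 643 and 676 CPM in WT against 643, 676 and 689 in cKO, with a log2 fold change of -0.01 (95% interval -0.11 to 0.10). Atp5b, the catalytic beta subunit, was at 644, 647 and 643 CPM in WT against 548, 601 and 641 in cKO. All 3 cKO libraries of Atp5b were below WT, cKO 3 by little, and the change was not called (log2 fold change -0.11, adjusted p = 0.270, edgeR).

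The largest fitted change in complex V was that of Atp5e, the epsilon subunit, at -0.23 (SE 0.13, adjusted p = 0.319, edgeR). It was at 22.7, 27.7 and 33.4 CPM in WT against 20.3, 25.9 and 24.7 in cKO, with overlapping groups. The 3 genes of the proton-carrying c ring, Atp5g1, Atp5g2 and Atp5g3, encode the same mature protein. Their log2 fold changes were 0.02, 0.23 and 0.04 and none was called. Atp5g2, the gene with the fewest counts of these, was at 10.5, 10.9 and 10.8 CPM in WT against 9.90, 13.6 and 14.2 in cKO, and passed the threshold without cKO 1 (log2 fold change 0.37, adjusted p = 0.0188, edgeR).

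The 8 restricted isoforms were expressed at lower levels and measured less precisely than the common subunits. Of the 7 tested, 1 was called lower and 0 higher, and log2 fold changes ran from -1.26 for Cox8c to 0.77 for Cox6a2, with a median of 0.17. The median standard error of these 7 was 0.18, beside 0.070 for the 74 tested common subunits. The isoforms known from the male germline and those known from muscle, lung or low oxygen are given in turn, each beside the common paralog that fills the same place in the complex.

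The coding sequences of Cox7b and Cox7b2, and of Cox8a and Cox8c, are shown because these germline isoforms had the largest negative changes, and because the value of each rests on reads being assigned to the right paralog. They are GENCODE M21 coding sequences, 5′ to 3′, with capitals for the longest run of bases that the pair shares exactly.
Cox7b: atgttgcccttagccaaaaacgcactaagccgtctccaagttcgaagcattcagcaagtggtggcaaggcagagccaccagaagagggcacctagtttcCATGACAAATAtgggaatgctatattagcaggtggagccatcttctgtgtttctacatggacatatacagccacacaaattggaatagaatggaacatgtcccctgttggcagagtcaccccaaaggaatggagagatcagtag
Cox7b2: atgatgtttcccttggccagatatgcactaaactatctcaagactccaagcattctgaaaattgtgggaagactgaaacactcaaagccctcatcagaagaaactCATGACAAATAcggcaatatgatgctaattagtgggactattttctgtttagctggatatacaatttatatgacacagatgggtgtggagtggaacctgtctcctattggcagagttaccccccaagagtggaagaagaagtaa
Cox8a: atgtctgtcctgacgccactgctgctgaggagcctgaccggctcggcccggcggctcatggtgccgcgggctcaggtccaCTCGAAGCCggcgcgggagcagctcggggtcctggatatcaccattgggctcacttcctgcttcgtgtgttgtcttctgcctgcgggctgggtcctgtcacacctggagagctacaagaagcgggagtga
Cox8c: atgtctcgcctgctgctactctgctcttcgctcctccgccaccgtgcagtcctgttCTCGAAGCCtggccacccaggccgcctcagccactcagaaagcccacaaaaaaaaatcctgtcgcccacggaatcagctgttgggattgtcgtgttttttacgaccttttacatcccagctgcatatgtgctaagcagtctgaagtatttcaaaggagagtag

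Cox7b and Cox7b2 were identical at 65.4% of 243 aligned bases, and their longest shared run was 11 bases. Cox8a and Cox8c were identical at 64.7% of 190 aligned bases, with a longest shared run of 9 bases. Over the 9 pairs of paralogs compared, identity ran from 54.9% for Cox8a and Cox8b to 76.1% for Cycs and Cyct, and the longest shared run anywhere was 28 bases, in Ndufa4 and Ndufa4l2. Neither Cox7b2 nor Cox8c had a copy in another gene model at 95% identity or more over at least 30% of a transcript, and neither shares exon bases on its strand with another gene.

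Cox7b2, a paralog of subunit 7b known from testis, lies at chr5:71442824-71548205 and was the member with the largest called change. It was at 4.02, 5.25 and 5.52 CPM in WT against 3.24, 3.04 and 2.38 in cKO. Each cKO library was below each WT library. Its log2 fold change was -0.78 (SE 0.18, adjusted p = 0.0222, edgeR). The call was lost without WT 2 (adjusted p = 0.111), WT 3 (0.0991), cKO 2 (0.0651) or cKO 3 (0.0642). Within 5 Mb of Cox7b2, 4 of 72 tested genes (5.56%) were called, beside 8.34% of all genes tested. The common paralog Cox7b, on chromosome X, was at 47.5, 51.1 and 53.8 CPM in WT against 56.6, 57.8 and 49.9 in cKO, a log2 fold change of 0.11 with overlapping groups.

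Cox8c, the testis form of subunit 8 at chr12:102899316-102900526, had the largest fitted change of all the members and was not called. It had 40, 45 and 40 counts in WT and 17, 11 and 12 counts in cKO, that is 0.952, 1.04 and 1.12 CPM in WT against 0.648, 0.322 and 0.344 in cKO. All cKO libraries were below all WT libraries, cKO 1 being the nearest to WT. The log2 fold change was -1.26 (SE 0.39, adjusted p = 0.0689, edgeR), and without cKO 1 it was -1.63 (adjusted p = 0.0146). Cox6b2, the testis form of subunit 6b, did not share this pattern: it was at 7.76, 5.76 and 7.09 CPM in WT against 7.01, 6.72 and 7.60 in cKO, a log2 fold change of 0.05 (95% interval -0.25 to 0.35). The common form Cox6b1 had a log2 fold change of -0.06, a direction that turned without WT 3 or cKO 1.

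Cyct, the testis cytochrome c, is not a member by the rule but carries electrons between complexes III and IV, and it fell with a lower adjusted p than any member. It was at 14.0, 17.0 and 18.7 CPM in WT against 9.64, 7.63 and 9.06 in cKO, with no overlap (log2 fold change -0.92, SE 0.13, adjusted p = 0.00109, edgeR). The somatic cytochrome c, Cycs, was at 85.7, 74.3 and 75.8 CPM in WT against 92.3, 79.9 and 59.4 in cKO, with overlapping groups and a log2 fold change of -0.03. The germ cell markers were lower in the same cKO libraries (9 of 12, median log2 fold change -0.74 over the 12), and their part in the falls of Cox7b2 and Cyct, and in the values of Cox8c, was not tested.

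The 4 tested isoforms known from muscle, lung or low oxygen had fitted log2 fold changes above 0, and 0 of them were called. Cox6a2, of heart and skeletal muscle, was at 1.09, 1.45 and 2.04 CPM in WT against 2.51, 3.42 and 1.83 in cKO (log2 fold change 0.77, SE 0.29, adjusted p = 0.134, edgeR), with overlapping groups. Cox7a1, of the same tissues, was at 14.6, 15.5 and 14.9 CPM in WT against 17.2, 17.3 and 16.0 in cKO, without overlap (0.17, SE 0.087, adjusted p = 0.274, edgeR). Markers of striated muscle gave 0 calls among 10 tested, and their summed level was 36.6 to 38.9 CPM in WT and 32.6 to 34.8 CPM in cKO. Ndufa4l2, a target of the hypoxia-inducible factor, was at 5.12, 5.50 and 5.44 CPM in WT against 5.75, 6.87 and 6.76 in cKO, without overlap (0.28, SE 0.13, adjusted p = 0.229, edgeR). Cox4i2, a form of subunit 4 known from lung, was at 2.19, 1.43 and 1.51 CPM in WT against 2.44, 1.84 and 2.52 in cKO (0.40, SE 0.25, adjusted p = 0.364, edgeR), with overlapping groups. Cox8b, a muscle form of subunit 8, had 0, 0 and 6 counts in WT and 0, 1 and 0 in cKO, too few to test.

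Set as a percentage of the common paralog, per kilobase, the isoforms showed how far each pair is from equal use. Cox7b2 was at 21.8% of Cox7b in WT and 11.9% in cKO, and Cox8c at 0.853% of Cox8a in WT and 0.405% in cKO. These percentages depend on the deposited exon lengths, 542 bases for Cox7b2 and 1214 for Cox7b. In mean CPM, without division by length, Cox7b2 was at 4.93 beside 50.8 for Cox7b in WT, and 2.89 beside 54.8 in cKO. Per kilobase of deposited exon length, Cyct was at 109% of Cycs in WT and at 60.1% in cKO. In CPM, without division by length, Cyct was below Cycs in every library. Near-identical copies in other gene models were looked for only for the members, so not for Cycs or Cyct. Cox7a1 was at 15.8 and 16.1% of Cox7a2, Cox6b2 at 7.31 and 7.93% of Cox6b1, Ndufa4l2 at 13.2 and 16.7% of Ndufa4, Cox4i2 at 1.74 and 2.67% of Cox4i1, and Cox6a2 at 0.430 and 0.656% of Cox6a1, in WT and cKO in that order. Of the 8 pairs that could be tested, the groups did not overlap in the ratios of Cox7b2, Cox8c, Cyct and Ndufa4l2. For each of these 4 the exact two-sided permutation test gave p = 0.1, the smallest it can give with 3 against 3, and 0.2 after adjustment over the 8 pairs. The log2 ratio differed by -0.87 for Cox7b2, -1.08 for Cox8c, -0.86 for Cyct and 0.34 for Ndufa4l2, cKO minus WT.

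**Figure D4:**
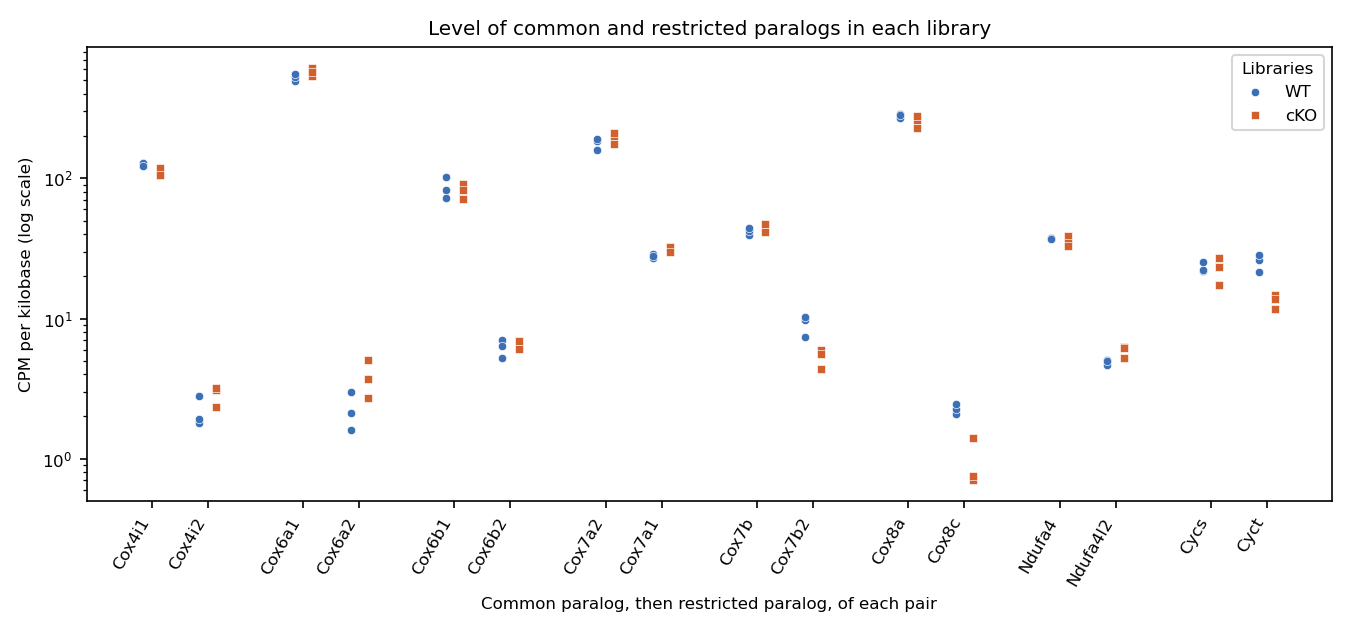
Level of each common and restricted paralog in each library, in CPM per kilobase on a log axis; circles are WT and squares cKO. The restricted paralogs lie below the common ones except for Cyct, which on this per-kilobase scale is about level with Cycs in WT. Cox7b2, Cox8c and Cyct are the restricted paralogs whose cKO points all lie below WT.

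By position, 3 members lie on chromosome 8: Ndufa13 and Cox4i1, which fell, and Ndufb7, which had all cKO libraries above WT. None of the 3 had overlapping groups, and they moved in different directions. Of the 80 tested members on other chromosomes, 2 were called and 12 had groups that did not overlap. Over all genes tested, 8.34% were called and 28.2% had groups that did not overlap. The median log2 fold change of these 80 members was 0.04. The 3 members on chromosome X, Ndufa1, Ndufb11 and Cox7b, had log2 fold changes of 0.13, 0.06 and 0.11 and overlapping groups.

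Many of these genes have processed pseudogenes, which bears on how counts were assigned. Of the 85 genes, 22 had at least 1 near-identical copy in another gene model, 39 copies in all, of which 36 are pseudogenes. None of the 4 called genes was among them. The 21 tested genes with a copy had a median log2 fold change of 0.07 and 0 calls, and the 62 without one 0.03 and 4 calls. The share called over all genes tested was 8.34%. With so few genes, these counts do not set members with and without a copy apart. Exon bases were shared with another gene on the same strand in 6 of the 85, among them Ndufb9 (19.5% of its bases) and the second Atp5o model (all of them), and in none of the 4 called genes. Of 12 gene models whose symbols match but which are not protein-coding, Ndufb1-ps, annotated as a long noncoding RNA, was at 21.2, 23.9 and 25.1 CPM in WT against 38.7, 37.0 and 32.1 in cKO (log2 fold change 0.62, SE 0.092, adjusted p = 0.00158, edgeR). It was singled out after its values were seen.

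Short motifs that the choice by symbol did not use were more frequent in the members' promoters than in those of all protein-coding genes. Most promoters of members held none of them. RefSeq promoter windows of 300 bases (GRCm38.p6) were found for 66 of the 84 symbols, 71 windows in all. The core of the NRF1 motif, GCATGCGC, was present on either strand in 14.1% of the member windows and in 3.51% of the windows of all protein-coding genes. The YY1 motif AAGATGGCG was in 9.86% against 1.83%, the ETS motif CCGGAAGT in 7.04% against 5.15%, and any of the 3 in 29.6% against 9.87%. The median number of CG dinucleotides was 19 against 13. These are matches of letters and not sites of binding. The 250 bases before the start are shown for Cox6a1, the gene with the highest level per length, which holds the NRF1 core on both strands at overlapping bases, and for Cox7b2, which holds none of the 3 motifs, with CG in capitals, each written 5′ to 3′ on the gene's strand, here the minus strand.
Cox6a1, chr5:115348959-115349208: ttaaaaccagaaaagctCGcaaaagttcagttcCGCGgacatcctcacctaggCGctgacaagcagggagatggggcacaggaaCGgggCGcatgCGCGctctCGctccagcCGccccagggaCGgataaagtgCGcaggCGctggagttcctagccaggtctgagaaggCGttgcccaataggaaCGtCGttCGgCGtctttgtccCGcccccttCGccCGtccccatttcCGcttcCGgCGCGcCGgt
Cox7b2, chr5:71548206-71548455: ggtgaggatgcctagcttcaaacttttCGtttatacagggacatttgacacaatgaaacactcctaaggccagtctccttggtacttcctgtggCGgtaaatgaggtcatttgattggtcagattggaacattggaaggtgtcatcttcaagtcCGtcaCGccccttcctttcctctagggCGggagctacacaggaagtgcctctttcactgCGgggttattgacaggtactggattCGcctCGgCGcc

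The windows shown hold 26 CG dinucleotides for Cox6a1 and 9 for Cox7b2. Among the other called genes, the windows of Ndufc2 and Ndufa13 held none of the 3 motifs, and no window was found for Cox4i1.

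The other genes of the pathway were described from lists. In the lists of assembly factors, 0 of 18 tested genes were called for complex I (with Ndufab1, an accessory subunit) and 0 of 4 for complex II. For complex III (with Cyc1, the cytochrome c1 gene) 0 of 7 were called, and for complex IV 0 of 20. The complex V list, which also holds other genes, among them the member Atp5mpl, gave 0 of 6. The medians of these lists lay between -0.04 and 0.07. At an unadjusted p under 0.05 these lists held 5, 0, 0, 4 and 1 genes, beside 23.3% of all genes tested. Of 10 tested electron carriers and uncouplers, Cyct was the only one called (4 at an unadjusted p under 0.05). Of 17 regulators of mitochondrial gene expression, 0 were called (4 at an unadjusted p under 0.05), and the median was -0.02.

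Among the members and the listed oxidative phosphorylation genes, only subunits encoded by the mitochondrial genome were called higher. The gene model Ndufb1-ps, in none of these lists, was also called higher (log2 fold change 0.62, adjusted p = 0.00158, edgeR). Its symbol matches those of complex I, and it was left out of the members by its annotated gene type. Of the 13 mitochondrially encoded genes, 3 rose and 0 fell, beside 3.4% of all genes tested called higher and 4.94% lower. Their median log2 fold change was 0.20, and 8 had an unadjusted p under 0.05, beside 23.3% of all genes tested. The 3 calls became 0 without WT 1, WT 2 or cKO 2, 1 without WT 3, 5 without cKO 1 and 7 without cKO 3. The genes mt-Nd5, mt-Nd2 and mt-Nd6, all of complex I, rose by 0.30 (SE 0.068, adjusted p = 0.0172), 0.28 (SE 0.067, adjusted p = 0.0230) and 0.34 (SE 0.087, adjusted p = 0.0329, edgeR). mt-Nd5 was at 3315, 3794 and 3778 CPM in WT against 4858, 4494 and 4068 in cKO, with cKO 1 highest and no overlap. The calls were lost without WT 1 (adjusted p = 0.0855, 0.101 and 0.160 for mt-Nd5, mt-Nd2 and mt-Nd6), WT 2 (0.0547, 0.0634 and 0.0782) or cKO 2 (0.0659, 0.106 and 0.112), those of mt-Nd2 and mt-Nd6 also without WT 3 (0.0545 and 0.104), and that of mt-Nd6 also in edgeR's robust fit (0.0638). By contrast mt-Co1, a catalytic subunit of complex IV, was at 4235, 4806 and 4762 CPM in WT against 4593, 4726 and 4525 in cKO, a log2 fold change of 0.00 with overlapping groups. The difference between the nuclear and the mitochondrial lists was not tested.

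Around oxidative phosphorylation, 4 of 18 tested glycolysis genes rose and 0 fell, beside the same 3.4% and 4.94% over all genes. Their median log2 fold change was 0.20, and 10 of the 18 had an unadjusted p under 0.05, beside 23.3% of all genes tested. The 4 calls became 2 without WT 1, 0 without WT 2, 1 without cKO 2 and 7 without cKO 1, and 3 without WT 3 or cKO 3. Ldha and Ldhb, the lactate dehydrogenase subunits, rose by 0.28 (SE 0.053, adjusted p = 0.00676) and 0.24 (SE 0.048, adjusted p = 0.00874), Pfkl, liver-type phosphofructokinase, by 0.33 (SE 0.072, adjusted p = 0.0154), and Tpi1, triosephosphate isomerase, by 0.25 (SE 0.061, adjusted p = 0.0278, edgeR). Ldha was at 109, 104 and 104 CPM in WT against 124, 133 and 129 in cKO, with every cKO library above every WT library. The call of Ldha was lost without WT 2 (adjusted p = 0.0618) or cKO 2 (0.0532), that of Ldhb without WT 2 (0.0750), and that of Pfkl without WT 1 (0.0810), WT 2 (0.0618), WT 3 (0.0855) or cKO 2 (0.1005). That of Tpi1 was lost without WT 1 (0.138), WT 2 (0.146), cKO 2 (0.0891) or cKO 3 (0.0732). Of 18 tricarboxylic acid cycle genes, 1 fell and 0 rose (6 at an unadjusted p under 0.05), and the median was -0.06. The fall was that of Pdha2, the testis form of the pyruvate dehydrogenase alpha subunit, at 3.26, 2.79 and 2.40 CPM in WT against 1.68, 1.55 and 1.55 in cKO (log2 fold change -0.83, SE 0.21, adjusted p = 0.0292, edgeR). This call was lost without WT 1, WT 2, cKO 2 or cKO 3 (adjusted p = 0.0668 to 0.123). Markers of germ cells were lower and 5 of 12 Sertoli cell markers higher in the same libraries, and their part in these changes was not tested.

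**Figure D5:**
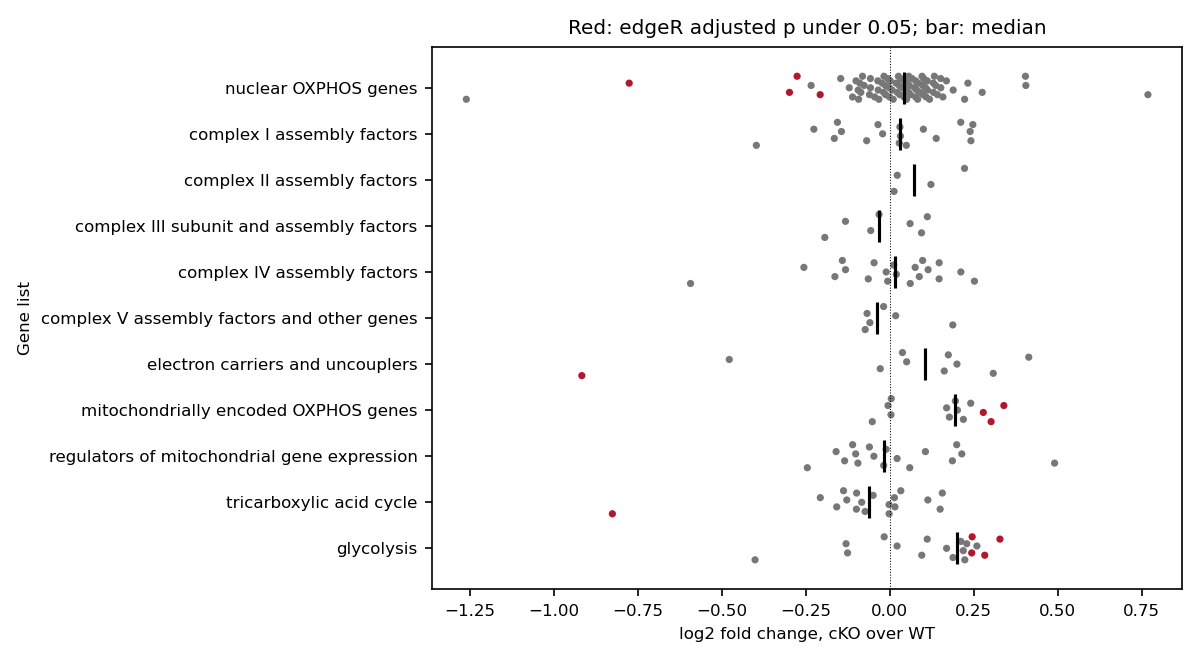
Log2 fold change, cKO over WT, of each tested gene (points) in the nuclear oxidative phosphorylation genes and in 10 related lists, with the list's median as a bar; red marks an edgeR adjusted p under 0.05. The medians lie between -0.06 and 0.20, the highest being those of glycolysis and of the mitochondrially encoded genes, and Cyct and Pdha2 are the called genes on the left of the related lists.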

How the data were processed

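Reads per gene were measured in 3 WT and 3 cKO samples. The deposited values are raw counts per the file headers, made by featureCounts 1.6.4 with the gene models of GENCODE M18: reads on the gene's strand, without reads mapped to more than 1 place or over more than 1 gene, and not as pairs. The submitters' processing notes name cutadapt, HISAT2 and GRCm38.p5. Per the labels' protocols, total RNA was depleted of unwanted transcripts and primed with random and poly(T) primers, while the molecule label says polyA RNA. Gene lengths are the deposited exon lengths, per the file headers.

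GENCODE M21 gave names to 54165 of 54232 genes. Low genes were removed by filterByExpr (at least 10 counts, 15 in total), libraries scaled by TMM, and the rest tested with edgeR 4.0.16 (R 4.3.3), with group as the only term. CPM uses TMM-scaled library sizes, and CPM per kilobase divides by gene length. Isoform ratios used a prior count of 2. DESeq2 1.42.0, limma 3.58.1 and minimap2 2.31-r1302 (copies) were also used. The members and the lists were chosen with earlier results of these data known. The genes named by rule are those called, the highest per kilobase and the largest change in each complex, the isoform pairs, those not tested, and up to 3 called genes of lowest p in each other list. Members not described singly enter the counts, medians and ranges, and 1 result on a single gene is not reported here. Other genes are named for their role, or after their values were seen. Of 9 isoform pairs 8 were tested. The alternatives were 15 other settings and, for the isoform ratios, a prior count of 0.5.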

Additional observations from a re-analysis of the deposited data

How the results depend on the processing

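The 4 called members remained called, with 0 higher, under DESeq2 size factors, library size alone, the filter of 1 CPM in 3 samples, DESeq2, limma-voom, the robust fit, scaling without mitochondrial, haemoglobin, ribosomal protein and small RNA genes, and the replicate block (0 higher and 4 lower). Same-numbered samples correlated at 0.031, 0.013 and 0.065 in their deviations from the group means, and those of different number at -0.054 to 0.023. With so few samples per group these values cannot decide whether the numbers pair the samples. With no filter on low counts 1 member was higher, in complex I (1), namely Ndufb4 (adjusted p = 2.47e-05), and the related lists together held 11 higher and 5 lower in place of 7 and 2. DESeq2 gave them 4 lower, and leaving out mitochondrial and ribosomal genes 4 higher, the mitochondrial list then being untested. The causes of the other shifts were not tested.

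Leaving out each sample in turn gave 0 to 5 lower and 0 to 3 higher members. Without WT 2 or WT 3 there were 0 lower. Without cKO 1 there were 3 higher, Cox6a1, Ndufs7 and Atp5g2, and the 4 calls and Cox8c lower. Complex I ranged from 0 to 2 lower and 0 to 1 higher, complex IV from 0 to 3 lower and 0 to 1 higher, complex V from 0 to 1 higher, the related lists from 0 to 15 higher and 1 to 3 lower, and all genes from 236 to 1670 higher and 387 to 1705 lower, the most without cKO 1. Directions turned for genes near 0: Uqcr10 ranged from -0.0083 (without cKO 2) to 0.096, Cox6b1 from -0.17 to 0.080 (turned without WT 3 or cKO 1), Cox6b2 from -0.061 to 0.15 (without WT 2 or cKO 3), Cycs from -0.18 to 0.13 (without WT 1 or cKO 3), Atp5o from -0.076 to 0.028 (without WT 3 or cKO 1), and the log2 ratio of Cox7a1 over Cox7a2 from -0.024 to 0.091 (without WT 3 or cKO 3). The 95% interval of 8 tested members reached beyond 0.5 on the log2 scale, 5 of them restricted isoforms, and a gene not called may still differ.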
